A study of Mus musculus with 13 samples.

Results

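The regions described here are the stretches of mouse autosome with the least 5-hydroxymethylcytosine (5hmC) that was still measured in every tumour of the study. A bin of 300 kb on chromosomes 1 to 19 was taken when its 5hmC percentage was above 0 in all 13 tumours and its unweighted mean over the 13 tumours was under 1.0%. This gave 813 bins, or 244 Mb, which is 11.7% of the 6947 autosomal bins above 0 in every tumour (called measured bins below), out of 8219 autosomal bins and 9097 bins in the whole table. The bins were thus chosen by their 5hmC percentage in these tumours, and their low level is not a result. The samples were 13 PyMT-induced breast tumours, 1 from each FVB mouse (PyMT is the polyoma virus middle T antigen, an oncogene), profiled by shallow tet-assisted bisulfite sequencing (TAB-seq). In the first model the mice were 16 weeks old and either Phd2 heterozygous (Phd2+/-, n = 4) or Phd2 wild type (Phd2+/+, n = 3). In the second the mice were 12 weeks old and had been given, by hydrodynamic injection, a plasmid that overexpresses sFlk1 (PRRL2-sFlk1, n = 3) or the empty PRRL2 plasmid (n = 3). Phd2 is an oxygen-dependent prolyl hydroxylase that marks hypoxia-inducible factors for destruction, and the labels describe Phd2+/- tumours as better vascularised and oxygenated. The sFlk1 protein is a soluble VEGF receptor that traps the growth factor, and the labels describe these tumours as more hypoxic. The labels do not say which promoter drove PyMT, or whether the Phd2 allele was lost in all cells of the mouse. In all groups the extraction buffers held DFO, a chelator of iron, at 200 µM. Each library is bulk tumour DNA with no expression measured, so the tumour type could not be checked against markers, and a change in 5hmC per cell cannot be told apart from a change in the mix of cells. Read counts are not in the table, so depth is unknown and no counting interval is given.

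5hmC is made from 5-methylcytosine by the TET enzymes, which use oxygen, iron and 2-oxoglutarate. In many mammalian tissues it is known to be rich in the bodies of transcribed genes and at enhancers, and poor in gene-poor, repressed chromatin. In TAB-seq the 5hmC is first protected and the remaining 5-methylcytosine oxidised, so that a cytosine that survives bisulfite treatment is read as 5hmC. Clusters of chemosensory receptor genes and the long genes of neuronal adhesion molecules are textbook examples of genes that most cells keep silent.

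Promoter sequences show what kinds of gene start in these bins. The sequences are from RefSeq on GRCm38.p6 (the C57BL/6J reference) and have each CpG, the dinucleotide that can carry methylation, in capitals. They run from 250 bases before to 50 bases after a transcript start, on the gene's own strand. For each gene the first promoter listed was used, and for Lrfn5 that stretch lies inside the gene body. CpG reads the same on both strands, and 95.0% of the 16457 autosomal promoters in the RefSeq table hold at least 1. The first belongs to a gene of one of the longest runs, and the next pair to receptor families that are frequent in the lowest bins. The promoter of Defb41, a beta-defensin, lies at chr1:18265089-18265388 on the minus strand and has 0 CpGs. That of the vomeronasal receptor Vmn1r68 lies at chr7:10528120-10528419 on the minus strand and has 1. That of the olfactory receptor Olfr292 lies at chr7:86688091-86688390 on the plus strand and has 0.
Defb41: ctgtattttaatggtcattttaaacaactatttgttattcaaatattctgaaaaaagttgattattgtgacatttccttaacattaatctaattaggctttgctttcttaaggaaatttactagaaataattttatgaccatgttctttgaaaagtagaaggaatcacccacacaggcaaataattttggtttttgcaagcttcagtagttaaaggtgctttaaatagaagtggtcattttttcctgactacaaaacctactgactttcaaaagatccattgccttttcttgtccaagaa
Vmn1r68: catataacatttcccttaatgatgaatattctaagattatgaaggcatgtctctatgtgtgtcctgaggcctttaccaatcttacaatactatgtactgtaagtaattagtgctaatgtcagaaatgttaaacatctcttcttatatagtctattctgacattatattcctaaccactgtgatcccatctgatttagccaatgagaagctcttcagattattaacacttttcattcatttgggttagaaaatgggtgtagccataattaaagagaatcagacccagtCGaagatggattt
Olfr292: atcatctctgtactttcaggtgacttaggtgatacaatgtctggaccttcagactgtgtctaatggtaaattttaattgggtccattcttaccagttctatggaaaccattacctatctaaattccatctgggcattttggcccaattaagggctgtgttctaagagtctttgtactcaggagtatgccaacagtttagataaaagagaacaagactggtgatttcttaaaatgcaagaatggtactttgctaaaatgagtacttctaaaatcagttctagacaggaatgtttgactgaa
CpG-rich promoters also lie in these bins. That of Lrfn5, a synaptic adhesion protein, lies at chr12:61522917-61523216 on the plus strand and has 32 CpGs, in a bin with a mean of 0.527%. That of Zic1, a transcription factor of the developing brain, lies at chr9:91365719-91366018 on the minus strand and has 31 CpGs, in a bin with a mean of 0.568%. It was chosen after its values were seen.
Lrfn5: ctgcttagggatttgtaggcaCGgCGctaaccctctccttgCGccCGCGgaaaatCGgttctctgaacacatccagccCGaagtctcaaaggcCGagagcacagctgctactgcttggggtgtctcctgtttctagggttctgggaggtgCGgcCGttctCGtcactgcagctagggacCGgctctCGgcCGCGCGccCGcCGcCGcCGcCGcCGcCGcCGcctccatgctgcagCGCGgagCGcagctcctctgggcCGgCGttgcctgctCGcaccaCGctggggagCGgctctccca
Zic1: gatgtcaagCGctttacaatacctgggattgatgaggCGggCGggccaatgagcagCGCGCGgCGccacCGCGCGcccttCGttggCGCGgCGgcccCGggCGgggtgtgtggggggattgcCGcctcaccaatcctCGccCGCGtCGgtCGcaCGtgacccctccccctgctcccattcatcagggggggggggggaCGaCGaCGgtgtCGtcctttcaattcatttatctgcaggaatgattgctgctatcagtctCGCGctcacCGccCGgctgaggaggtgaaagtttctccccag
For contrast, the promoter of the glycolytic gene Gapdh, at chr6:125165724-125166023 on the minus strand, has 12 CpGs and lies outside the lowest bins, in a bin with a mean of 4.94%.
Gapdh: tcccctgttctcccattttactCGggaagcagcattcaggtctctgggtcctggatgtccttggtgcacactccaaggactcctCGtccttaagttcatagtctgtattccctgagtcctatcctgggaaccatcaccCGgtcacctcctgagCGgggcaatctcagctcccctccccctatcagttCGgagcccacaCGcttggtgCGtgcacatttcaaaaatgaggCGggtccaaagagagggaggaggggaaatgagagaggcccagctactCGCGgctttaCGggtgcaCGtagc

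The mean over 13 tumours ran from 0.368% to 0.9996% in the 813 bins, with a median of 0.754%, while the median of the other 6134 measured bins was 3.18%. A total of 42 bins had a mean under 0.5%, 360 lay between 0.5% and 0.75%, and 411 between 0.75% and 1.0%. The lowest was chr15:69900001-70200000, which holds no protein-coding gene. Its values were 0.350%, 0.478%, 0.109% and 0.356% in Phd2 heterozygous tumours and 0.206%, 0.312% and 0.306% in wild-type tumours. They were 0.354%, 0.198% and 0.627% in sFlk1 tumours and 0.743%, 0.186% and 0.559% in empty-vector tumours, so all 13 lay under 1% and the groups overlapped. The next 4 were chr7:58200001-58500000 (mean 0.383%), chr11:39600001-39900000 (0.390%), chr7:52200001-52500000 (0.392%) and chr13:7800001-8100000 (0.396%), none with a protein-coding gene. Just inside the threshold were chr4:44400001-44700000 (0.9996%), with Pax5, a transcription factor of B cells, chr5:85200001-85500000 (0.998%), with no gene, and chr13:11400001-11700000 (0.997%), overlapped by Ryr2, the calcium release channel of heart muscle. Just outside were chr18:28200001-28500000 (1.0004%), chr3:92700001-93000000 (1.002%), with Lce genes of the skin's cornified envelope, and chr6:31800001-32100000 (1.002%).

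Few of these bins were under 1% in every tumour, although few single values were far above it. Of the 10569 single values, 75.9% were under 1% and 119 (1.13%) were over 2%, the lowest being 0.0653% and the highest 3.15%. Only 51 of the 813 bins were under 1% in all 13 tumours, 475 were in 10 or more, and 24 in 6 or fewer. The SD over the 13 tumours had a median of 0.387 percentage points and the SD over the mean a median of 0.526, against 0.859 and 0.284 in the other measured bins. The order of the 813 bins was hardly shared between tumours. Over 78 pairs of tumours the Pearson correlation across the lowest bins had a median of 0.0590 (lowest -0.0364, highest 0.234), while across all measured bins it had a median of 0.797 (lowest 0.677, highest 0.871). The lowest bins span a far narrower range of levels than the whole, and bins are not independent replicates, so these correlations are a description with no test.

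The choice could be checked on tumours it did not use. In the 7 tumours of the Phd2 model alone, 1278 autosomal bins were above 0 and had a mean under 1.0%. Of these, 71.8% also had a mean under 1.0% in the 6 plasmid tumours, where 14.0% of the 7357 bins eligible by the same rule did. In the 6 plasmid tumours alone, 952 bins were chosen, and 91.3% of them were under 1.0% in the Phd2 model, against 17.4% of 7277 bins. The lists shared 628 bins, which is 49.1% of the Phd2-model list and 66.0% of the plasmid-model list. The requirement of a value above 0 removed many low bins. A further 920 autosomal bins had a mean under 1.0% and a 0 in at least 1 tumour: 501 in 1 tumour, 231 in 2 and 188 in 3 or more. Whether a 0 means no 5hmC or too few reads cannot be told from the table.

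The lowest bins lay partly in domains. They formed 545 uninterrupted stretches: 368 were single bins, and 177 runs of 2 or more held 445 of the 813 bins (54.7%). There were 118 runs of 2, 35 of 3, 17 of 4, 6 of 5 and 1 of 6 bins. When runs were joined over 1 intervening bin, 196 runs held 565 bins (69.5%), with at most 9 in a run. Where the next bin was itself above 0 in all tumours, it was one of the lowest bins in 49.1% of 546 cases. Runs often ended at a bin that was low but had a 0: of 1089 flanking bins, 50.9% were measured bins at 1.0% or more and 45.6% were under 1.0% with a 0 in at least 1 tumour. The 5hmC level climbed over more than 1 Mb around the domains. Around runs of 3 or more, the mean was 1.38% in the bins 0.3 Mb away, 1.74% at 0.6 Mb, 2.20% at 1.2 Mb and 2.41% at 1.8 Mb, and it was lower again further out, with 2.18% at 3 Mb. Around single bins it was 1.33% at 0.3 Mb, 2.26% at 1.8 Mb and 2.40% at 3 Mb. By chromosome the share of measured bins that were among the lowest ran from 4.97% on chromosome 19 (9 of 181), 7.61% on chromosome 2 and 7.78% on chromosome 11 to 15.6% on chromosome 6 and 16.3% on chromosome 7 (61 of 375). The last 10 Mb of a chromosome held 5.17% of the lowest bins and 8.46% of the other measured bins.

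**Figure D1:**
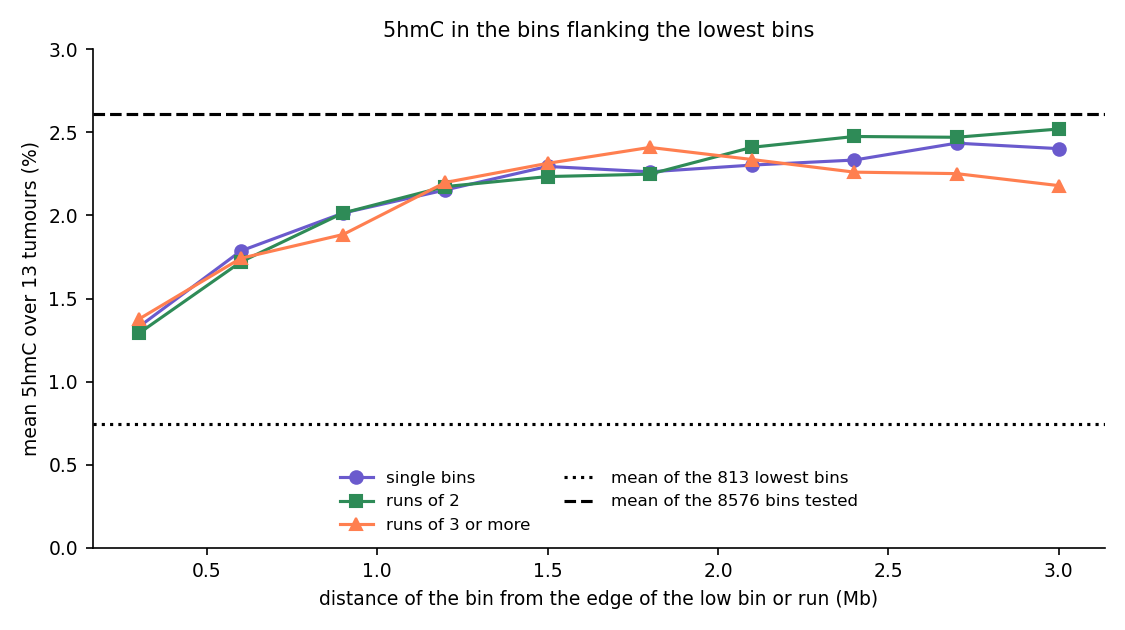
Mean 5hmC percentage over the 13 tumours (y axis) in bins at increasing distance in Mb (x axis) from a single lowest bin, a run of 2 or a run of 3 or more. Bins at 0 in all tumours were left out, and from 0.6 Mb on other lowest bins are included. The 3 lines start between 1.29% and 1.38% at 0.3 Mb and lie between 2.25% and 2.41% at 1.8 Mb, under the mean of all bins tested (dashed line).

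The longest run was chr16:82500001-84300000, 6 bins with no protein-coding gene and a mean of 0.852%. Its mean was 0.573%, 0.591%, 0.998% and 0.553% in Phd2 heterozygous tumours and 0.469%, 0.873% and 0.697% in wild-type tumours. It was 1.37%, 1.09% and 0.792% in sFlk1 tumours and 0.773%, 1.00% and 1.30% in empty-vector tumours. Both pairs of groups overlapped. Of the 6 runs of 5 bins, chr12:96300001-97800000 was the lowest at 0.496%, with no protein-coding gene and with flanks of 0.497% and 0.595%, each at 0 in 1 tumour. In chr16:66000001-67500000 (0.690%), 56.3% of the bases lie in Cadm2, a cell adhesion molecule of neurons. That run had 0.404%, 0.448%, 0.842% and 0.465% in Phd2 heterozygous tumours and 0.628%, 0.465% and 0.518% in wild-type tumours. It had 0.996%, 0.911% and 1.07% in sFlk1 tumours and 0.948%, 0.766% and 0.506% in empty-vector tumours, again with overlap in both pairs.

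The other runs of 5 bins had sharper surroundings in places. The run at chr1:17700001-19200000 (0.731%) holds Crispld1 and Crisp4, which encode cysteine-rich secretory proteins, the beta-defensins Defb18 and Defb41, and Tfap2d, a transcription factor of the AP-2 family. It was flanked by a bin of 2.88% with the peptidase inhibitor gene Pi15 and by a bin of 2.33% with Tfap2b, another AP-2 gene. The run at chr9:11700001-13200000 (0.736%) holds no protein-coding gene and ended at the steepest edge of the 7, a bin of 7.01% with Jrkl, Ccdc82 and Maml2, a coactivator of Notch signalling. In that flanking bin the lowest value was 4.09% (Phd2 wild-type tumour 2) and the highest 9.57% (Phd2 heterozygous tumour 2). The run at chr6:25800001-27300000 (0.754%) touches Pot1a, which protects telomere ends, and Grm8, a metabotropic glutamate receptor. The run at chr1:27300001-28800000 (0.709%) holds Gm597 alone.

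The lowest bins were poor in genes. Each gene was counted in the bin that holds most of its body. A lowest bin had 1.04 protein-coding genes on average, against 2.98 in the other measured bins, and 65.9% had none, against 22.9%. No protein-coding gene even overlapped 51.0% of the lowest bins, against 14.1% of the others. Gene bodies covered 23.1% of their bases on average, against 46.7%. Both genes per bin and bases in gene bodies were lower in the lowest bins on 19 of 19 chromosomes. Long noncoding RNAs followed, with 0.616 per bin against 1.83, but pseudogenes did not, with 1.08 against 1.10. Neighbouring bins are not independent, so these shares are given without a test. Within the 813 bins the gradient went on: bins under 0.5% had 0.690 genes, those from 0.5% to 0.75% had 0.950 and those from 0.75% to 1.0% had 1.15. The 104 bins in runs of 4 or more had 0.288. The genes that were there were of unusual length: the median was 3.29 kb, against 19.2 kb for genes of the other measured bins, yet 7.22% were longer than 300 kb, against 2.22%. Accordingly 86 of the lowest bins (10.6%) lay wholly inside 1 gene, against 4.94% of the others. This was not particular to them, with 8.95% in bins from 1% to 1.25% and 10.5% in bins from 1.25% to 1.5%. The 920 low bins with a 0 in at least 1 tumour were alike too, with 8.37% inside 1 gene and 66.0% with no gene assigned.

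**Figure D2:**
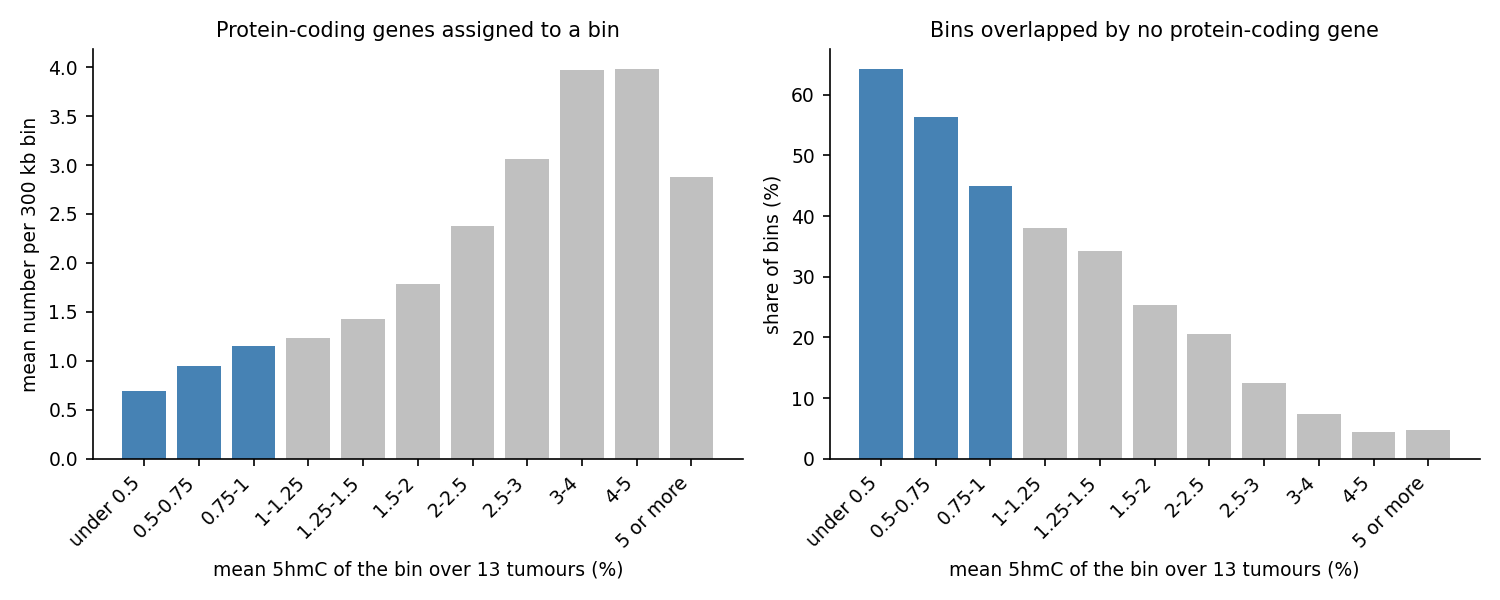
Protein-coding genes per 300 kb bin (left) and share in percent of bins that no protein-coding gene overlaps (right), for measured autosomal bins in classes of mean 5hmC percentage over 13 tumours (x axis), with the 813 lowest bins in blue and the others in grey. Genes per bin run from 0.690 in bins under 0.5% to 3.98 in bins of 4% to 5%, and bins without a gene from 64.3% to 4.37%.

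Families of clustered, tissue-restricted genes made up much of what was present. Of the 667 olfactory receptor genes in measured bins, which encode odour receptors of the nose, 246 (36.9%) lay in the lowest bins, which hold 845 (4.42%) of the 19103 protein-coding genes of measured bins. These were 27 of the 110 measured bins with such a gene (24.5%), against the 11.7% of all measured bins that are among the lowest. Vomeronasal receptors, which detect pheromones, had 103 of 200 genes (51.5%) and 24 of 62 bins (38.7%), the lowest being the bin of Vmn1r68 to Vmn1r71 at 0.473%. Immunoglobulin and T cell receptor segments, which recombine in lymphocytes, had 81 of 247 segments in 5 of 18 bins, with kappa segments such as Igkv4-68 in a bin of 0.564%. Most kappa segments are not among the protein-coding genes counted here, so the 4.42% is not the base for this list. Keratin-associated proteins of the hair shaft had 23 of 55 genes in 2 of 10 bins. The Ceacam and Psg genes, adhesion proteins and placental glycoproteins, had 10 of 25 genes in 3 of 10 bins, with Ceacam12 and Ceacam13 in a bin of 0.497%. The Speer and Skint families had 3 of 6 genes.

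Other families had 1 or few bins among the lowest. C2H2 zinc finger genes, DNA-binding proteins that are also clustered, had 13 of 383 genes in 9 of 221 bins (4.07%), the lowest being the bin of Zfp936 at 0.507%. Cytochrome P450 genes had 7 of 87 in 3 of 46 bins, with Cyp2c67 and Cyp2c68, of the liver, in a bin of 0.528%. Taste and trace amine receptors had 12 of 50 genes, all Tas2r bitter receptors of 1 bin at 0.813%. Defensins had 2 of 29, the prolactin family 2 of 25 and serpins 1 of 46. None of 26 genes of urinary and odorant-binding proteins, 10 of Klra and Klr receptors or 33 of the UDP-glucuronosyl and sulfotransferases lay in the lowest bins. Of the lists of genes with a role in most or in mammary cells, none had a gene in the lowest bins, but with 4.42% of all genes there and so few genes per list, a count of 0 is near that share. Housekeeping genes had 0 of 14, cytosine modification genes (the TET and DNMT enzymes among them) 0 of 10, hypoxia-inducible genes 0 of 17 and mammary luminal genes 0 of 12, and the lowest bins these lists reached had means of 3.17%, 2.97%, 1.48% and 2.33%.

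**Figure D3:**
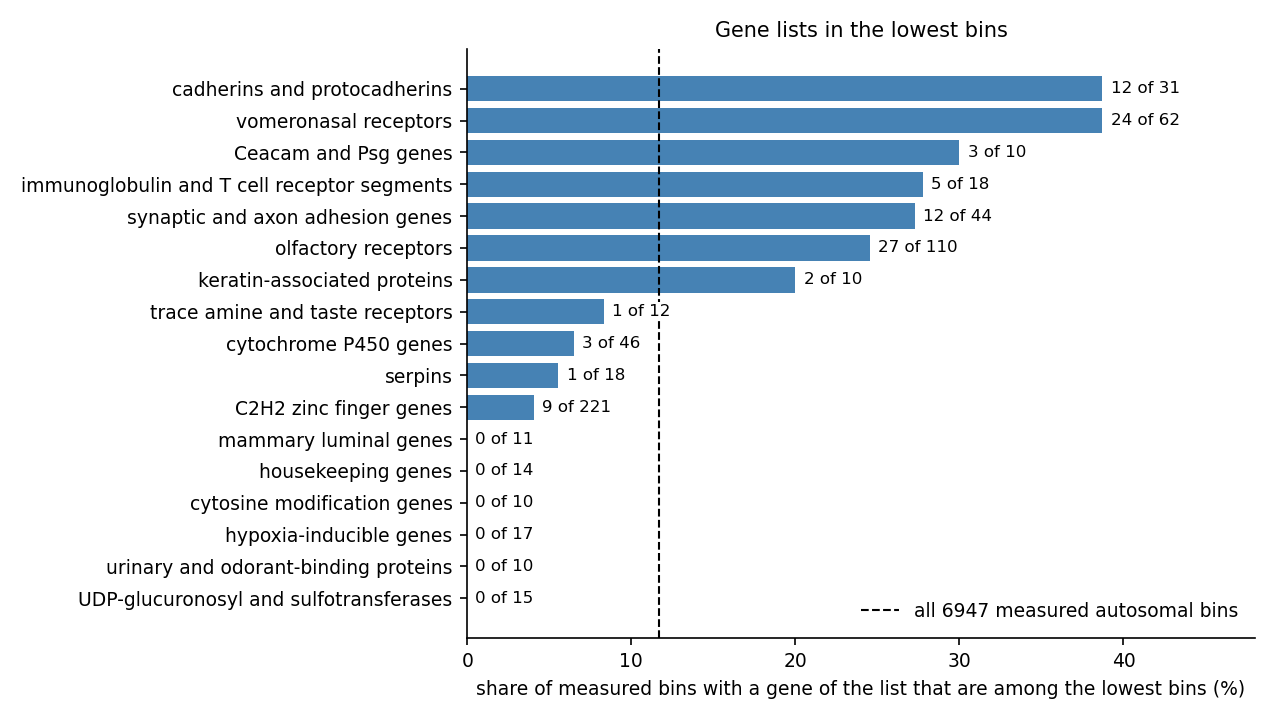
Share in percent of the measured autosomal bins holding a gene of each list that are among the 813 lowest bins (x axis), for lists found in 10 or more measured bins, with the number of bins beside each bar and the 11.7% of all measured bins as a dashed line. Cadherins and protocadherins and vomeronasal receptors have the longest bars at 38.7%, and 6 lists have none.

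Adhesion genes were the other large group. Cadherins and protocadherins, which join cells by calcium-dependent contacts, had 43 of 86 genes in 12 of 31 measured bins (38.7%). Most were the clustered protocadherins of chromosome 18, where Pcdha1 and its neighbours lay in a bin of 0.779% and Pcdhb1 to Pcdhb19 in a bin of 0.889%, but Cdh12 (0.600%), Cdh7 (0.612%) and Cdh26 (0.614%) lay in separate bins. A list of 62 autosomal genes of synaptic and axon adhesion, nearly all of large bodies, was also followed over every bin each gene overlaps. Of these genes, 41 overlapped a lowest bin, and 71 of their 193 measured bins (36.8%, counting a bin once for each gene) were among the lowest. Of the measured bins overlapped by any autosomal gene over 300 kb, listed genes of that length included, 189 of 1353 (14.0%) were, counted the same way. The list was written with earlier results of these data known, so the 2 shares are a description. Ptprd, a receptor tyrosine phosphatase of synapses that spans 2271 kb, had all 6 of its measured bins among the lowest, between 0.524% and 0.844%. Tenm2, a teneurin that links synaptic partners, had 4 of 5, and its highest bin reached 1.91%. Pcdh15, a protein of the hair-cell tip link, had 3 of 4, Cadm2 and Grm8 had 3 of 3, and Grm7, another glutamate receptor, had 2 of 2 (0.542% and 0.589%). Other long genes of the list had few or no bins among the lowest: Macrod2 had 0 of 8 bins (mean 3.24%), Lsamp 0 of 7 (1.86%) and Cntnap2 1 of 6 (1.44%). The part of gene length was not tested.

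The bins with the most genes were all gene clusters. The first, chr11:99600001-99900000, has 24 protein-coding genes, 10 of them named Krtap. Its values were 1.13%, 1.37%, 1.03% and 1.38% in Phd2 heterozygous tumours and 0.714%, 0.465% and 0.694% in wild-type tumours, with every heterozygous tumour above every wild-type tumour. The difference was 0.602 percentage points (SE 0.308), but limma's adjusted p was 0.476. The next, chr18:37200001-37500000, has 22 genes, among them Pcdhb1 to Pcdhb19. The one after it, chr7:103800001-104100000 (0.622%), has 20 genes, with the beta-globin genes of red cells, Hbb-bt, Hbb-bs, Hbb-bh1 and Hbb-y among them, next to olfactory receptors. That bin had 1.48%, 0.745% and 1.12% in sFlk1 tumours and 0.394%, 0.226% and 0.305% in empty-vector tumours, which do not overlap (difference 0.808 percentage points, SE 0.317), but limma's adjusted p was 0.623. Receptor, zinc finger and immunoglobulin families hold near-identical copies whose number can vary between mouse strains, so that reads could be placed wrongly or lost there, and the effect on these bins was not tested.

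Promoters in the lowest bins held few CpGs. A promoter sequence was found for 685 of the 845 genes assigned to them (81.1%). The 693 promoters that start in the lowest bins had a median of 2 CpGs in 300 bases, against 16 in the 14529 promoters of the other measured bins. At most 2 CpGs, as in the promoters of Vmn1r68 and Olfr292 printed above, were found in 63.3% against 12.3%, and 15 or more, as in those of Lrfn5 and Zic1, in 11.1% against 54.1%. Without olfactory and vomeronasal receptors the medians were 3 in 390 promoters and 17 in 14081. The receptors themselves had a median of 1 both in the lowest bins and in the other measured bins. At most 2 CpGs were found in 91.4% of 303 receptor promoters in the lowest bins and in 77.7% of 448 in the others. These counts describe promoters alone, since the sequence of whole bins was not used here.

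Setting Phd2 heterozygous against wild-type tumours asks whether 5hmC differs where the tumour is better oxygenated. In the lowest bins the level was nearly the same in both groups, while the rest of the measured autosome was higher in every heterozygous tumour than in any wild-type tumour. The mean over the 813 bins was 0.701%, 0.682%, 0.803% and 0.597% in Phd2 heterozygous tumours and 0.637%, 0.707% and 0.649% in wild-type tumours. The groups overlapped, with heterozygous tumour 3 the highest and heterozygous tumour 4 the lowest of the 7. They averaged 0.696% ± 0.0848 (SD, n = 4) and 0.664% ± 0.0379 (SD, n = 3), which is 0.0315 percentage points apart (SE 0.0477). Without heterozygous tumour 3 the difference was -0.00438, and without heterozygous tumour 4 it was 0.0644. In the other 6134 measured bins, heterozygous tumours had 3.77%, 4.10%, 3.55% and 3.26%, all above the 3.08%, 2.74% and 3.06% of wild-type tumours. The lowest bins thus stood at 19.04% ± 2.55 (SD, n = 4) of the level of the other bins in heterozygous tumours and at 22.6% ± 2.85 (SD, n = 3) in wild-type tumours, with overlap. The step between them was 2.98 ± 0.343 and 2.30 ± 0.231 percentage points, with no overlap. As the lowest bins were nearly level, this step mostly restates the difference of the other bins. Bins at 0 numbered 259 to 499 of the autosomal bins in heterozygous tumours and 280 to 353 in wild-type tumours, and their part in these means was not tested. No spike-in rates were stated, so how much of values this low is background, such as unoxidised 5-methylcytosine, is unknown and was not tested.

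**Figure D4:**
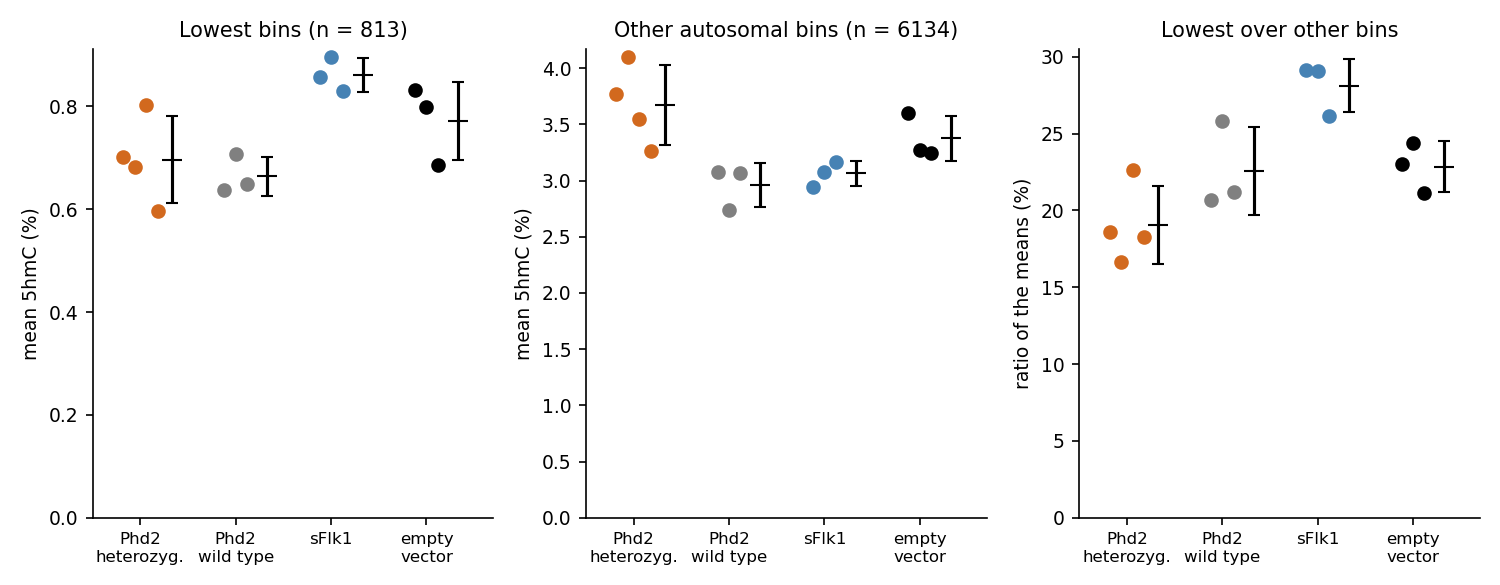
Mean 5hmC percentage per tumour (points) over the 813 lowest bins (left) and the other 6134 measured autosomal bins (middle), and the first mean as a percentage of the second (right), by group, with the group mean and SD as a bar. In the left panel both pairs of groups overlap, in the middle panel neither pair does, and in the right panel the 3 sFlk1 tumours (26.2% to 29.1%) lie above the 3 empty-vector tumours (21.1% to 24.4%).

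The comparison of sFlk1 with empty vector asks the same where the tumour is more hypoxic. Here the mean was higher in the lowest bins, with overlap of the groups, and lower in the other measured bins, without overlap. Their mean was 0.857%, 0.896% and 0.829% in sFlk1 tumours and 0.831%, 0.799% and 0.686% in empty-vector tumours. The groups overlapped only in sFlk1 tumour 3, which lay just below empty-vector tumour 1. They averaged 0.861% ± 0.0336 and 0.772% ± 0.0760 (SD, n = 3 each), a difference of 0.0886 percentage points (SE 0.0480), which was 0.0457 without empty-vector tumour 3. In the other measured bins, sFlk1 tumours had 2.94%, 3.08% and 3.17%, all below the 3.60%, 3.28% and 3.25% of empty-vector tumours. The lowest bins stood at 28.1% ± 1.69 of the other bins in sFlk1 tumours and at 22.9% ± 1.64 in empty-vector tumours (SD, n = 3 each), and the groups did not overlap. Bins at 0 numbered 313 to 564 in sFlk1 tumours and 309 to 380 in empty-vector tumours. Neither their part in this nor that of background was tested. Among the 920 low bins with a 0 in at least 1 tumour, the difference was 0.0284 percentage points (SE 0.0556), with means of 0.674% and 0.646%.

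The mean over all 13 tumours, these groups included, chose the bins, so the differences were also computed on bins chosen without the tumours compared. With bins chosen in the plasmid tumours alone, Phd2 heterozygous tumours averaged 0.674% ± 0.0886 (SD, n = 4) and wild-type tumours 0.657% ± 0.0292 (SD, n = 3) over 952 bins. With bins chosen in the Phd2 model alone, sFlk1 tumours averaged 0.864% ± 0.0741 and empty-vector tumours 0.817% ± 0.0716 over 1278 bins (SD, n = 3 each). Both pairs overlapped, and the differences were 0.0169 (SE 0.0474) and 0.0472 (SE 0.0595) percentage points, in the same directions as before and within the spread between tumours.

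The group differences changed with the level of the bin. The classes of level were cut on the mean over all tumours, those compared included, and were not cut again without them. In Phd2 heterozygous tumours the 42 bins under 0.5% averaged 0.398%, against 0.433% in wild-type tumours (difference -0.0348 percentage points, SE 0.0302). It was 0.0113 (SE 0.0407) in bins from 0.5% to 0.75% and 0.0560 (SE 0.0607) in bins from 0.75% to 1.0%. Above the threshold it went on growing, with 0.0756 (SE 0.0761) in bins from 1% to 1.25% and 1.499 (SE 0.432) in bins of 5% or more. As a share of the wild-type level this was -8.03%, 1.98%, 7.27%, 7.51% and 28.4%. For sFlk1 against empty vector the difference was 0.0711 (SE 0.0609), 0.111 (SE 0.0477) and 0.0707 (SE 0.0502) in the 3 classes of lowest bins. The middle class is where the groups did not overlap, with 0.738% to 0.773% in sFlk1 tumours and 0.552% to 0.695% in empty-vector tumours. The values of these tumours also helped to set the class, so the lack of overlap there is a description alone. Over all bins chosen in the Phd2 model alone, as given above, the sFlk1 and empty-vector groups overlapped. The sFlk1 minus empty-vector difference was 0.0238 in bins from 1% to 1.25%, -0.0702 in bins from 1.25% to 1.5% and -0.733 (SE 0.282) in bins of 5% or more. Neither comparison had a step at the threshold of 1.0%.

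**Figure D5:**
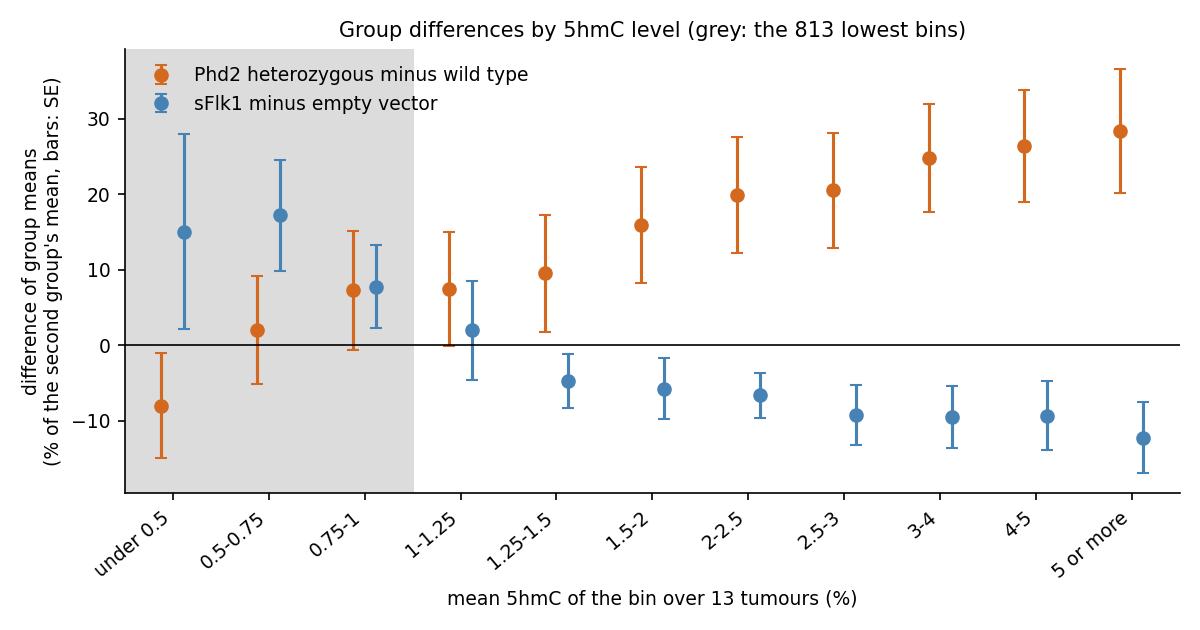
Difference of group means in percent of the wild-type or empty-vector mean (y axis, bars: SE) for measured autosomal bins in classes of mean 5hmC percentage over 13 tumours (x axis), for Phd2 heterozygous minus wild type and sFlk1 minus empty vector. The Phd2 points run from -8.03% under 0.5% to 28.4% at 5% or more, and the sFlk1 points from 15.1% to -12.3%, above 0 up to the class of 1% to 1.25% and below 0 from that of 1.25% to 1.5%.

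No single one of the 813 bins differed between groups after adjustment. With limma's moderated test and Benjamini-Hochberg adjustment over the 8576 bins tested, 0 of the lowest bins passed 0.05 for Phd2 heterozygous against wild type, where the percentage called over all bins was 0%. None passed for sFlk1 against empty vector either, where it was 0.0117%. The smallest adjusted p-values from limma were 0.350 and 0.466. At an unadjusted limma p under 0.05, 6 of the lowest bins were higher and 8 lower in Phd2 heterozygous tumours, where 10.4% and 0.443% of all bins tested were. In sFlk1 tumours 31 were higher and 9 lower, where 2.12% and 5.06% of all bins were. As shares of the 813 bins these are 0.738%, 0.984%, 3.81% and 1.11%. The median SE of a bin's difference was 0.319 percentage points for Phd2 and 0.341 for sFlk1, against a median level of 0.754% in these bins.

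In Phd2 heterozygous tumours 442 of the 813 bins (54.4%) had a higher mean than in wild-type tumours, where 75.1% of all bins tested did, and 371 had a lower one, where 24.8% did. When each tumour was scaled to the same genome-wide mean, 276 (33.9%) had a higher mean in heterozygous tumours, where 46.8% of all bins did. In sFlk1 tumours 491 (60.4%) had a higher mean than in empty-vector tumours, where 40.3% of all bins did, and 322 had a lower one, where 59.5% did. With that scaling 547 (67.3%) had a higher mean in sFlk1 tumours, where 51.9% of all bins did. The median difference of the lowest bins was 0.0216 percentage points for Phd2 heterozygous against wild type, against 0.385 over all bins tested. For sFlk1 against empty vector it was 0.0893, against -0.146. Groups did not overlap in 22 bins that were higher and 20 that were lower in heterozygous tumours, where 11.0% and 0.933% of all bins tested were. For sFlk1 these were 54 higher and 30 lower bins, where 3.43% and 8.24% of all bins were. In the 754 bins just above the threshold, from 1% to 1.5%, sFlk1 tumours were higher without overlap in 30 (3.98%), against 54 of 813 (6.64%) in the lowest bins, and lower without overlap in 41 (5.44%), against 30 of 813 (3.69%). Members of a run share their neighbourhood, so these bins are not independent of each other.

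The bins with the smallest p-values held few genes and are given as values. For Phd2, chr8:52200001-52500000, with no protein-coding gene, had 1.45%, 1.72%, 0.723% and 1.26% in heterozygous tumours and 0.524%, 0.252% and 0.421% in wild-type tumours (difference 0.888 percentage points, SE 0.324, limma adjusted p = 0.350). The heterozygous tumours were all higher. The bins chr2:116400001-116700000 and chr6:44700001-45000000 followed with differences of 0.792 and 0.623. On the lower side, chr11:66600001-66900000 had 0.364%, 0.836%, 0.459% and 0.743% in heterozygous tumours and 1.44%, 1.12% and 1.70% in wild-type tumours, with no overlap. The bin chr3:25500001-25800000, in Nlgn1, a postsynaptic neuroligin, had 0.814%, 0.127%, 0.829% and 0.559% in heterozygous tumours and 0.958%, 2.64% and 1.03% in wild-type tumours. Without wild-type tumour 2, whose value was the highest, its difference of -0.958 was -0.410. The third, chr8:89400001-89700000, had a difference of -0.806.

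For sFlk1 the first bin by p was chr6:96600001-96900000, overlapped by Tafa1 and Tafa4, which encode small secreted proteins of the nervous system. It had 1.06%, 2.51% and 2.07% in sFlk1 tumours and 0.826%, 0.634% and 0.279% in empty-vector tumours (difference 1.30 percentage points, SE 0.368, limma adjusted p = 0.466). The groups did not overlap. The bin chr5:27000001-27300000, in Dpp6, an accessory subunit of potassium channels, had 0.624%, 1.68% and 2.32% in sFlk1 tumours and 0.691%, 0.242% and 0.151% in empty-vector tumours, with overlap between sFlk1 tumour 1 and empty-vector tumour 1. The bin chr11:28200001-28500000, of Ccdc85a, had 0.708%, 1.10% and 1.52% in sFlk1 tumours and 0.204%, 0.219% and 0.111% in empty-vector tumours. On the lower side, chr8:15000001-15300000 holds Kbtbd11 and Myom2, a protein of the muscle M-band. It had 0.348%, 0.484% and 0.562% in sFlk1 tumours and 1.01%, 1.25% and 1.91% in empty-vector tumours (difference -0.927, SE 0.372, limma adjusted p = 0.626). The bins chr18:17700001-18000000 and chr9:80700001-81000000, with no gene assigned, had differences of -0.985 and -0.828, which were -0.652 and -0.460 without empty-vector tumour 2.

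Between the models the lowest bins were somewhat higher in plasmid tumours, which came from younger mice. Their mean had a lowest value of 0.686%, a median of 0.830% and a highest value of 0.896% in the 6 plasmid tumours. In the 7 tumours of the Phd2 model these were 0.597%, 0.682% and 0.803%, so the models overlapped. In the other measured bins the medians were 3.21% and 3.26%. Age, injection and any difference in processing between the models cannot be told apart.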

How the data were processed

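The authors deposited 1 table with the 5hmC percent in each 300 kb bin, 1 column per tumour. The submitters' processing notes list Bismark 0.13.1 and mm9 without saying what each was used for. The last bin of chromosome 1 ends at 195471971, the GRCm38 length, so coordinates are given as GRCm38. Pooling within a bin, a coverage minimum and spike-in rates were not stated in the sources used here. A test on methylated counts was not possible, since the table holds percentages alone, and the precision of a value is unknown. Columns were matched to tumours by the sample descriptions. The p-values measure the spread between tumours.

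The lowest bins and the gene lists were chosen with earlier results of these data known. Differences per bin were fitted with limma 3.58.1 (R 4.3.3) on the percentages, with 4 group means and trend. Benjamini-Hochberg adjustment was over 8576 bins (all but Y, mitochondrial and all-0 bins). The fit was first run on simulated data with added changes far above the level of the lowest bins. That run therefore does not show how well changes in these bins would be found. Means over bins are unweighted, and the SE of a difference of such means is that of 2 independent groups; for a single bin it is limma's. Python 3.11.15 with pandas 2.3.3 did the rest. Genes came from RefSeq (GRCm38.p6), by symbol patterns or lists, and were assigned to the bin with most of their body. Named are the longest runs (7, as 6 runs tied at 5 bins), the 5 lowest bins, 3 bins on each side of the threshold, the 3 with the most genes, in each comparison the 3 higher and 3 lower bins of smallest p, and per family up to 3 genes in the lowest bins. Genes given for contrast or to illustrate a promoter, and the genes with most bins among the lowest, were chosen after their values were seen.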

Additional observations from a re-analysis of the deposited data

Results flagged for a closer look

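In 2 of the longest runs 1 Phd2 heterozygous tumour stood far from the other 3. In the gene-free run chr16:82500001-84300000, heterozygous tumour 3 had 0.998% and the others 0.573%, 0.591% and 0.553%, so that the gap to the nearest tumour was 0.915 of the group's whole range. In the run of Cadm2, chr16:66000001-67500000, heterozygous tumour 3 had 0.842% and the others 0.404%, 0.448% and 0.465%, a ratio of 0.862. Heterozygous tumour 3 also had the highest mean over all 813 bins of the 7 tumours in its model (0.803%) and the fewest autosomal bins at 0 of all 13 (259). A total of 40 groups of 4 values was looked at, of which chance alone takes about 5% past the critical value. Groups of 3 were not looked at in this way.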

How the results depend on the processing

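The number of lowest bins followed the rule: 493 with a threshold of 0.8%, 1733 when a 0 was allowed and 1278 from the Phd2 model alone, and 806 to 928 when 1 tumour was left out, with 95.9% to 98.9% of the 813 bins kept. The Phd2 heterozygous minus wild-type difference of the mean ran from -0.00438 to 0.0644 percentage points when 1 tumour was left out, and from 0.0457 to 0.118 for sFlk1 minus empty vector. Relative to the genome-wide mean of each tumour, the ratios differed by -0.0418 for Phd2 (0.244 in heterozygous and 0.285 in wild-type tumours) and by 0.0621 for sFlk1 (0.350 and 0.288 in empty vector). In the bins with a 0, an alternative chosen after seeing the data, the sFlk1 difference was 0.0284. Under every alternative run, limma called 0 of the lowest bins in either comparison. The counts at an unadjusted p under 0.05 ran from 2 to 23 higher and 3 to 19 lower for Phd2 (6 and 8 as reported), where 1.62% to 13.7% and 0.222% to 2.23% of all bins tested were. They ran from 16 to 52 higher and 3 to 17 lower for sFlk1 (31 and 9), where 1.38% to 4.10% and 3.10% to 6.10% of all bins were. The 23 came with sample weights, where 13.4% of all bins were higher, and the 19 with scaling, where 2.23% were lower. Leaving out a tumour moved the Phd2 counts to 16 higher without heterozygous tumour 4, where 13.7% of all bins tested were. They were 2 and 3 higher without wild-type tumours 1 and 3 (8.86% and 8.40% of all bins). Lower bins numbered 5 and 4 without heterozygous tumours 1 and 2 (0.373% of all bins each) and 3 without wild-type tumour 2 (0.303%). For sFlk1, 50 and 47 were higher without sFlk1 tumours 1 and 3 (3.53% and 2.83% of all bins). Without empty-vector tumour 3, 17 were lower (6.10% of all bins). The cause was not tested.

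The labels number the tumours of each group and name no pairs. Over all bins tested, deviations from the group mean correlated at -0.0934 to -0.00429 in same-numbered tumours and at -0.0554 to 0.0787 in others. In the lowest bins these ranges were -0.0468 to 0.0646 and -0.0502 to 0.0452. Correlations this weak do not decide whether the numbers mark pairs. With the replicate number as a block the differences of the mean were 0.0644 for Phd2, to which heterozygous tumour 4, without a partner, adds nothing, and 0.0886 for sFlk1, with 14 higher and 5 lower bins for Phd2 (13.1% and 0.338% of all bins) and 30 higher and 9 lower bins for sFlk1 (2.17% and 5.03%) at an unadjusted p under 0.05. Depth is unknown, and a bin's value rests on an unknown number of reads, so single bins at these levels are less certain than means over many bins. Any background shared by the bins of a tumour stays in such means, and its size is unknown.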
